A study of Mus musculus with 6 samples.

Results

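Kit and Flt3 encode the 2 class III receptor tyrosine kinases of early blood cells, and they were 2 of the 41128 genes in the deposited table. Both were chosen on their measured values, with their levels by treatment and by replicate number already known, so those levels are given as a description, with no test. The samples were RNA of cells sorted from the bone marrow of C57BL mice with the surface profile of long-term repopulating stem cells, which can rebuild the blood of a transplanted host. The treated mice had received YH250, a small molecule labelled as a p300/catenin antagonist, as a subcutaneous dose of 2 mg per kg, and the control mice had received its vehicle, DMSO. Marrow was taken 16 h later from both. All 6 libraries, 3 after YH250 and 3 after DMSO, came from the same gate: cells negative for lineage markers, CD41 and CD48, and positive for Sca1, c-Kit and CD150. The labels give neither the age nor the sex of the mice, nor whether the libraries came from separate animals, so p-values measure only the spread between these libraries. Libraries were numbered 1 to 3 in each group. What a number stands for is not stated, but libraries of the same number deviated together, those numbered 2 least.

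KIT is the receptor for stem cell factor (the product of Kitl), and FLT3 is the receptor for FLT3 ligand. Binding of the ligand pairs the receptors, which then phosphorylate each other and pass the signal to the RAS, PI3K and STAT5 pathways. In mouse marrow KIT marks stem and early progenitor cells and is needed for stem cell maintenance, whereas FLT3 is known as a receptor of multipotent progenitors with lymphoid and dendritic potential and is low or absent at the surface of long-term stem cells. The gate used here selected on KIT protein and did not include FLT3.

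Both genes lie on mouse chromosome 5 (build GRCm38, also called mm10). Kit (ENSMUSG00000005672.7) runs on the plus strand from 75574916 to 75656722, and its longest coding transcript has 21 exons. Flt3 (ENSMUSG00000042817.12) runs on the minus strand from 147330741 to 147400489, with 24 exons. The stretch before each start is shown, and the section on the loci refers to that of Flt3. The sequences are RefSeq's for GRCm38.p6, written 5′ to 3′ on the strand of the gene; the 179 bases of Kit end just before the annotated start, at chr5:75574737-75574915, and the 250 bases of Flt3 cover chr5:147400490-147400739.
Kit: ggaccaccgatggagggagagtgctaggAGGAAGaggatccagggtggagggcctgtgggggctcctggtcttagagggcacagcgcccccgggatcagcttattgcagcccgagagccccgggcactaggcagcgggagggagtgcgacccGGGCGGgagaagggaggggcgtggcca
Flt3: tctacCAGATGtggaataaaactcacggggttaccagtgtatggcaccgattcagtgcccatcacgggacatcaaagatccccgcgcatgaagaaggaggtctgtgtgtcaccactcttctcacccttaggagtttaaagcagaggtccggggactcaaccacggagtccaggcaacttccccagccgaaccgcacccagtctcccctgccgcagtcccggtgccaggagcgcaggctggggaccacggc
Capitals mark matches to short motifs searched on both strands. Windows of 250 bases before the RefSeq start were compared, which for Kit extends 71 bases past the annotated start. The Kit window held AGGAAG, the core of many Ets factor sites, 222 bases before the RefSeq start, and GGGCGG, the core of Sp factor sites, 98 bases before it. The Flt3 window held 1 E-box, CANNTG, 245 bases before its start. GATAA (GATA factors), TGTGGT (Runx factors), TGACAG (Meis factors) and AACTG (Myb) were in neither window. Among all 32851 promoter windows of that length, 29.5% held AGGAAG, 32.7% held GGGCGG and 66.2% held CANNTG, so these matches are common. The windows of Kit and Flt3 were 70.8% and 59.2% G or C, against a median of 52.4%. They held 17 and 13 CpG dinucleotides, against a median of 6. Another RefSeq start of Kit gave a window with the same AGGAAG and GGGCGG, 226 and 102 bases before it, and 18 CpG dinucleotides.

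Levels are in RPM (reads scaled to a common library total), the deposited value less its offset of 1; 1 RPM stood for 21.96 to 31.2 reads. The genes of a library summed to between 699979 and 959240 RPM, highest in both libraries numbered 3. Transcripts of the sort markers did not follow the gate equally in all libraries. Cd48, the marker the cells should lack, had 13.1, 66.9 and 252 RPM in YH250 libraries 1, 2 and 3, against 10.2, 31.5 and 258 RPM in DMSO libraries 1, 2 and 3. Slamf1, which encodes CD150, had 31.5, 3.92 and 1.54 RPM in YH250 libraries 1, 2 and 3, against 35.5, 0.515 and 4.69 RPM in DMSO libraries 1, 2 and 3. Itga2b encodes CD41, another marker the gate excluded, and fell from number 1 to number 3. It had 37.4, 26.3 and 7.13 RPM in YH250 libraries 1 to 3 and 43.7, 15.3 and 5.65 RPM in DMSO libraries 1 to 3. Ly6a encodes Sca1, a marker the gate required, and rose from number 1 to number 3. It had 122, 208 and 319 RPM in YH250 libraries 1 to 3 and 80.9, 155 and 241 RPM in DMSO libraries 1 to 3. No number thus matched the gate best in every sort marker transcript. Values for Kit and Flt3 are also given without each pair of libraries in turn.

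Kit was lower in mean after YH250, whereas Flt3 had nearly the same mean in both groups and differed by replicate number. Kit had 218, 160.1 and 129.6 RPM in YH250 libraries 1, 2 and 3, against 318, 265 and 213 RPM in DMSO libraries 1, 2 and 3. Within each number the YH250 library was the lower one, but the groups overlapped, because YH250 library 1 at 217.7 RPM stood above DMSO library 3 at 212.5 RPM. The means were 169 ± 44.7 RPM after YH250 and 265 ± 52.6 RPM after DMSO (SD, n = 3 each), a YH250 level 36.2% lower. On the log2(RPM + 1) scale the difference was -0.66 with a standard error of 0.27. Taken within numbers 1, 2 and 3 the differences were -0.54, -0.72 and -0.71, with an SD of 0.10 between them. Of the 13597 genes tested, 6.21% had a more negative difference between the groups, and 15.0% were lower in the YH250 library at all 3 numbers. The difference was -0.72 without the pair numbered 1, -0.63 without the pair numbered 2 and -0.63 without the pair numbered 3. Leaving out single libraries gave -0.86 (without YH250 library 1) to -0.48 (without YH250 library 3).

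Kit also differed by number, in the same order in both groups: library 1 was highest and library 3 lowest. Its mean over the pair of libraries was 171 RPM for number 3, 213 RPM for number 2 and 268 RPM for number 1. The log2 difference of number 3 minus number 1 was -0.66, as large as that between treatments on the deposited scaling. It became -1.05 after quantile normalization and -1.02 after rescaling each library to the sum of its genes. The treatment difference became -0.75 under both. On the deposited scaling treatment accounted for 59.3% of the variance of log2 Kit over the 6 libraries, the number for 39.8% and the remainder for 0.921%. These shares were not worked out under the other scalings. Over all tested genes the median shares were 10.3% for treatment and 58.2% for the number. Kit rested on about 3108 to 8276 reads a library, a counting error of 1.10% to 1.79%, which leaves out the spread from amplification and between samples.

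Flt3 had 28.9, 224 and 244 RPM in YH250 libraries 1, 2 and 3, against 26.6, 240.1 and 271 RPM in DMSO libraries 1, 2 and 3. The 2 libraries numbered 1 were low and the other 4 were high, from 223.9 to 271.3 RPM, whatever the treatment. The means were 166 ± 119 RPM after YH250 and 179 ± 133 RPM after DMSO (SD, n = 3 each), and the groups overlapped throughout. The log2 difference between treatments was -0.05 with a standard error of 1.46. This comparison was so wide that a difference of the size seen for Kit could not have been detected without regard to the number. Within numbers 1, 2 and 3 the differences were 0.12, -0.10 and -0.15, with an SD of 0.14. The treatment difference took either sign with 1 library left out, from -1.12 without DMSO library 1 to 0.95 without YH250 library 1. With whole pairs left out it was -0.13 without number 1, -0.02 without number 2 and 0.01 without number 3.

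The other 4 libraries averaged 245 RPM of Flt3, 8.83-fold the 27.7 RPM of the pair numbered 1. On the log2 scale number 2 minus number 1 was 3.02 and number 3 minus number 1 was 3.17. Each had a standard error of 0.20 from the limma fit, with treatment as a second term. The standard errors given for the treatment differences came from the variances within the groups and not from a fit. Number 3 minus number 2 was 0.15, and it turned to -0.12 after quantile normalization and to -0.09 after rescaling each library to the sum of its genes, so those 2 levels do not differ beyond their spread. Of the tested genes, 0.118% had a larger difference of number 2 minus number 1 and 1.52% a larger difference of number 3 minus number 1. The number accounted for 99.8% of the variance of log2 Flt3 and treatment for 0.0240%. Flt3 rested on about 693 reads in DMSO library 1 and 901 in YH250 library 1, with counting errors of 3.80% and 3.33%, and on 5601 to 6524 reads in the others. In sorted bulk samples fewer cells that express a gene and less of its RNA per cell cannot be told apart.

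**Figure D1:**
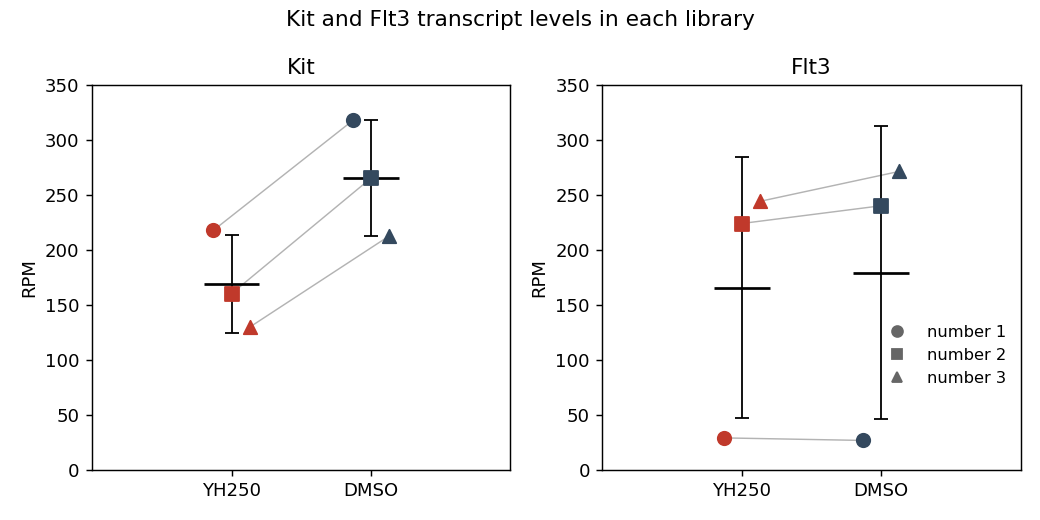
Levels of Kit (left) and Flt3 (right) in RPM on a linear axis from 0, by treatment, with YH250 left of DMSO; points are libraries with their replicate numbers, grey lines join libraries of the same number, and bars are the mean and SD of 3 libraries. Each Kit line is higher at its DMSO end, while the Flt3 lines are close to level, with number 1 at 28.9 RPM after YH250 and 26.6 RPM after DMSO and the other 4 libraries between 223.9 and 271.3 RPM.

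Divided by the length of their exons (8911 bases for Kit and 6176 for Flt3, all transcripts joined), the levels can be set against each other. Kit had 24.4, 17.97 and 14.5 RPM per kb in YH250 libraries 1, 2 and 3, against 35.6, 29.8 and 23.8 RPM per kb in DMSO libraries 1, 2 and 3. Flt3 had 4.68, 36.3 and 39.5 RPM per kb in YH250 libraries 1, 2 and 3, against 4.30, 38.9 and 43.9 RPM per kb in DMSO libraries 1, 2 and 3. Kit was therefore the more abundant receptor transcript in the libraries numbered 1, 5.22-fold after YH250 and 8.28-fold after DMSO, and Flt3 was the more abundant in the other 4. The ratio of Flt3 to Kit was 0.192, 2.02 and 2.72 in YH250 libraries 1, 2 and 3, against 0.121, 1.31 and 1.84 in DMSO libraries 1, 2 and 3. Within every number the ratio was higher after YH250, by 0.67, 0.63 and 0.56 on the log2 scale for numbers 1, 2 and 3, and most of that was the difference in Kit. The log2 ratio averaged 0.02 ± 2.10 after YH250 and -0.59 ± 2.14 after DMSO (SD, n = 3 each), a difference of 0.62 that was small beside the spread over numbers.

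**Figure D2:**
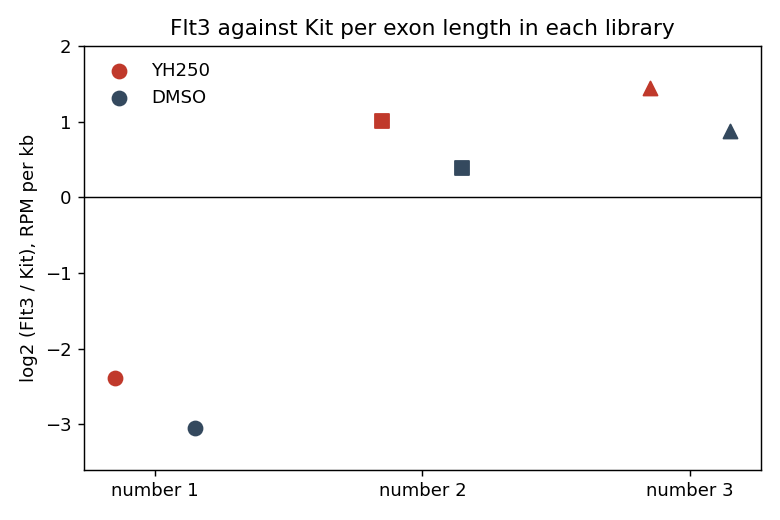
Ratio of Flt3 to Kit per kb of exon on a log2 axis, by replicate number, with YH250 left of DMSO at each number; points are libraries (red YH250, dark blue DMSO) and the black line marks equal levels. The ratio is below the line at number 1, at 0.192 after YH250 and 0.121 after DMSO, and above it at numbers 2 and 3, and at each number the YH250 library is the higher.

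Transcripts that mark stem cells and progenitors moved with the number beside the receptors. The lists were chosen with earlier results of these data known, so their counts are a description and not independent support. Satb1 is also in the list of transcription factors below, and Wfdc17 is also among the profiles most like Flt3. Of 18 long-term stem cell markers, 16 fell and none rose in number 3 against number 1 at an adjusted p under 0.05 (limma, 2 libraries a number, treatment as a second term), where 2.96% of all tested genes fell. Leaving out 1 library gave 11 to 18 that fell. Of 15 markers of multipotent and lymphoid-primed progenitors other than Flt3, 12 rose and none fell, where 5.60% of all tested genes rose; leaving out 1 library gave 9 to 13. In number 2 against number 1, 6 of these 15 rose, where 0.177% of all tested genes did, and no stem cell marker passed. There 4 of the 15 rose without DMSO library 1 or after rescaling each library to the sum of its genes and 9 without DMSO library 2, and 5 of the 18 stem cell markers fell without YH250 library 2, YH250 library 3 or DMSO library 2. Both libraries numbered 1 were above the other 4 for 11 of the 18 stem cell markers, against 9.58% of all tested genes, and below the other 4 for 10 of the 15 progenitor markers, against 10.6%.

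The summed stem cell markers were 1379, 1185 and 277 RPM in YH250 libraries 1, 2 and 3, against 1627, 1188 and 419 RPM in DMSO libraries 1, 2 and 3. The summed progenitor markers, Flt3 included, were 794, 4854 and 17916 RPM in YH250 libraries 1, 2 and 3, against 419, 1530 and 9291 RPM in DMSO libraries 1, 2 and 3. Ighm, the immunoglobulin heavy chain, named because it made up most of the highest sums, had 368, 3373 and 15344 RPM in YH250 libraries 1, 2 and 3, against 59.1, 157 and 6491 RPM in DMSO libraries 1, 2 and 3. None of the 18 stem cell or 15 progenitor markers passed between YH250 and DMSO, and none had an unadjusted p under 0.05 (limma). With the replicate number as a block, 2 of the 18 were under it, both lower after YH250. So were 5 of the 15, 4 higher and 1 lower, against 7.44% of all tested genes (limma), and none passed after adjustment. The part of these markers in the levels of Kit and Flt3 was not tested.

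Dntt, the lymphoid DNA polymerase, had 10.2, 153 and 614 RPM in YH250 libraries 1, 2 and 3, against 5.76, 38.3 and 633 RPM in DMSO libraries 1, 2 and 3. Cd34, a surface marker that multipotent progenitors gain, named after its values were seen, was lowest at number 1 like Flt3, with 168, 501 and 416 RPM in YH250 libraries 1, 2 and 3, against 158, 505 and 402 RPM in DMSO libraries 1, 2 and 3. Dntt, Cd34, Cd48, Satb1 and Wfdc17 were among those that rose in number 2 against number 1; the call of Dntt was lost without either library numbered 1, those of Cd34, Cd48, Satb1 and Wfdc17 held without each library in turn, and that of Cd48 was lost after rescaling to the sum of genes. Esam, an adhesion molecule of stem cells, had 79.1, 52.7 and 6.67 RPM in YH250 libraries 1, 2 and 3, against 105, 46.5 and 8.79 RPM in DMSO libraries 1, 2 and 3. Dntt and Esam also differed between numbers 3 and 2, by 3.01 and -2.54 on the log2 scale (adjusted p = 0.00321 and 0.00142, limma; that of Dntt was lost without DMSO library 1), whereas the difference of Flt3 there was 0.15.

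KIT is also the receptor of mast cells, and FLT3 that of dendritic cell precursors. Among 11 mast cell and basophil markers, 5 reached the minimum of 1 RPM in mean, and the mast cell proteases Tpsb2, Tpsab1, Mcpt4 and Cma1 were at 0 in all 6 libraries. The mast cell and basophil list summed to 5.04 to 116 RPM after YH250 and 1.87 to 64.3 RPM after DMSO. It was highest at number 3, where Kit was lowest. Of the 5 tested, Cpa3, Mcpt8 and Il1rl1 rose in number 3 against number 1, where 5.60% of all tested genes did. The same 3 rose in number 3 against number 2, where 3.67% did, and 2 after rescaling to the sum of genes. Against number 1 the call of Cpa3 was lost without DMSO library 3 and that of Mcpt8 without YH250 library 1 or 3. That of Il1rl1 held without each library in turn. Against number 2 the call of Cpa3 was lost without DMSO library 3, that of Mcpt8 without YH250 library 3 and that of Il1rl1 without either. The part of mast cells and basophils in the level of Kit was not tested. Of 14 dendritic cell and monocyte markers tested, 7 rose in number 3 against number 1, where 5.60% of all tested genes did, and 9 in number 3 against number 2, where 3.67% did. Those counts were 6 to 10 and 3 to 10 with 1 library left out, the 3 without DMSO library 3 and, in number 3 against number 2, 6 without YH250 library 3. The list summed to 650 to 3487 RPM after YH250 and 349 to 2077 RPM after DMSO. Between YH250 and DMSO none of these 14, nor of the 5 mast cell and basophil markers, had an unadjusted p under 0.05 (limma). With the replicate number as a block 4 of the 14 and 1 of the 5 were under it, all higher after YH250, against 7.44% of all tested genes. None passed after adjustment. Flt3 differed both in number 3 and in number 2 against number 1. The part of dendritic cells and monocytes in its level was not tested. In number 2 against number 1, 1 of the 14 rose, where 0.177% of all tested genes did. That was the protease gene Ctss, with 20.4, 69.2 and 256 RPM in YH250 libraries 1, 2 and 3, against 9.48, 50.3 and 203 RPM in DMSO libraries 1, 2 and 3.

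**Figure D3:**
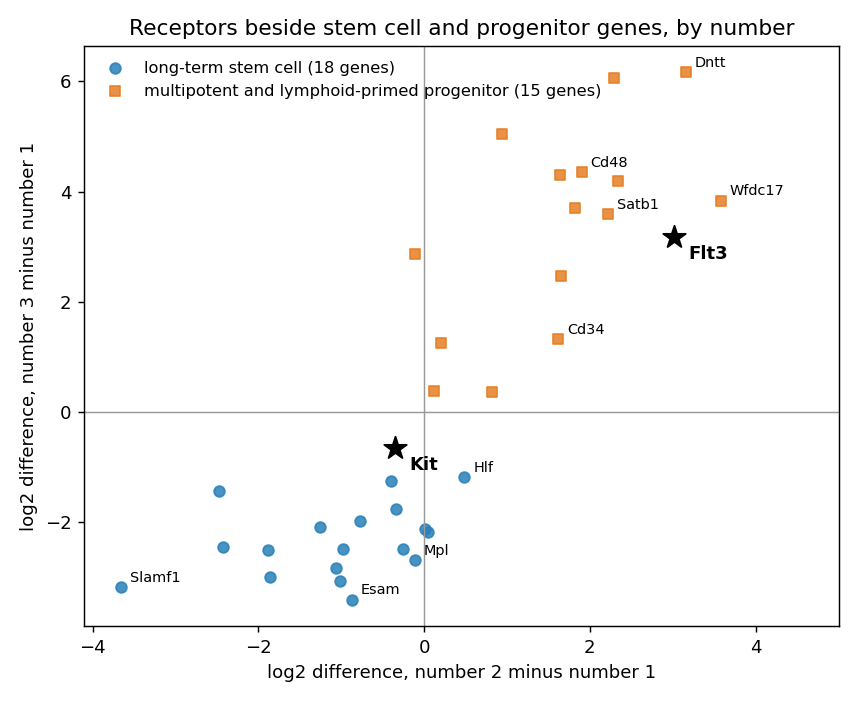
Log2 differences of number 2 minus number 1 (horizontal) and number 3 minus number 1 (vertical) for Kit and Flt3 (stars), 18 stem cell markers (circles) and 15 progenitor markers (squares), each over 2 libraries a number. Flt3 lies at 3.02 and 3.17, so its differences are nearly equal, while most progenitor markers lie farther up than right and most stem cell markers farther down than left, and Kit lies at -0.35 and -0.66.

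The ligands and the other class III receptors were at low levels in these sorted cells. Of the 11 genes listed, including Kit and Flt3 themselves, 10 matched a row; Flt3l was not matched and is not analysed here. Of the other 8, Il34, a ligand of the CSF1 receptor, was below the minimum with at most 1.46 RPM, and 7 were tested. In mean log2, 2 of the 7 were lower after YH250 and 5 higher, with a median difference of 0.12, beside 48.3% lower and a median of 0.02 over all tested genes. None passed between YH250 and DMSO, as none of all tested genes did (0%), with or without the replicate number as a block. At an unadjusted p under 0.05, 231 genes (1.70%) differed between YH250 and DMSO without the block and 1012 (7.44%) with it, and none of the 7 was among the 231.

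Kitl, the KIT ligand, had 0.737, 4.84 and 0.751 RPM in YH250 libraries 1, 2 and 3, against 3.53, 1.51 and 0.774 RPM in DMSO libraries 1, 2 and 3. The library with the most Kitl, YH250 library 2, also held the most of the marrow stroma transcripts Cxcl12 and Lepr, 202 and 58.2 RPM, against at most 36.3 and 7.99 RPM in the other 5 libraries. Their part in the Kitl value was not tested. Csf1r, the CSF1 receptor of monocytes, had 7.03, 0.0804 and 13.5 RPM in YH250 libraries 1, 2 and 3, against 1.15, 0.574 and 19.7 RPM in DMSO libraries 1, 2 and 3. It rose in number 3 against number 2, by 3.73 on the log2 scale with an adjusted p of 0.0134 (limma), a call that was lost without DMSO library 3. At that contrast 3.67% of all tested genes rose and 2.64% fell.

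The PDGF receptor Pdgfrb had 2.44, 8.79 and 12.9 RPM in YH250 libraries 1, 2 and 3, against 6.14, 3.75 and 12.6 RPM in DMSO libraries 1, 2 and 3. Pdgfra reached 7.32 RPM in YH250 library 2 and at most 1.38 RPM in the other 5 libraries. Csf1 had 7.34, 0.0400 and 4.29 RPM in YH250 libraries 1, 2 and 3, against 7.41, 2.61 and 1.50 RPM in DMSO libraries 1, 2 and 3. The ligand genes Pdgfa and Pdgfb ranged from 0 to 8.22 RPM, both highest in YH250 library 2. None of these 5 genes moved between YH250 and DMSO in the same direction at all 3 numbers.

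The carriers of the signal from both receptors, such as adaptors, SRC family kinases and the RAS, PI3K, AKT and STAT5 enzymes, were all expressed: 36 of 36 were tested. After YH250, 22 were lower and 14 higher in mean, with a median log2 difference of -0.04, and none passed. The 2 of 36 that passed between numbers 3 and 1 both fell, where 2.96% of all tested genes fell. None fell without YH250 library 1, DMSO library 1 or DMSO library 3, 1 fell without YH250 library 3, 4 fell without either library numbered 2, and 5 fell after quantile normalization or rescaling to the sum of genes. Akt1, a survival kinase below PI3K, had 95.4, 98.2 and 60.4 RPM in YH250 libraries 1, 2 and 3, against 108, 102 and 46.5 RPM in DMSO libraries 1, 2 and 3. It fell by 0.93 on the log2 scale in number 3 against number 1 (adjusted p = 0.0344, limma; lost without YH250 library 1, DMSO library 1 or DMSO library 3). Akt2 fell by 0.88 in the same contrast (adjusted p = 0.0455, limma; lost without either library numbered 1 or either numbered 3).

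Ptpn11, which encodes the phosphatase SHP2 that carries receptor signals to RAS, was the only carrier whose groups did not overlap. It had 37.4, 54.2 and 34.8 RPM in YH250 libraries 1, 2 and 3, against 31.0, 19.1 and 30.6 RPM in DMSO libraries 1, 2 and 3. Every YH250 library was above every DMSO library, as for 3.79% of all tested genes, and the difference of 0.63 on the log2 scale did not pass (unadjusted p = 0.0644, and 0.0494 with the replicate number as a block, limma). The kinase gene Pdpk1, which activates AKT, differed by -0.56 (unadjusted p = 0.107, and 0.0375 with the block, limma) and the RAS gene Hras by 0.45 (unadjusted p = 0.17, limma).

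Among 27 negative regulators of the receptors, 15 were lower and 12 higher after YH250, with a median of -0.05, and none passed. Grb10, an adaptor that binds KIT, had the strongest number difference: 54.0, 11.1 and 3.63 RPM in YH250 libraries 1, 2 and 3, against 67.5, 22.4 and 13.2 RPM in DMSO libraries 1, 2 and 3. It ran with Kit in order, highest at number 1 and lower in the YH250 library at every number, but over a wider range. It fell by 2.92 on the log2 scale in number 3 against number 1 (adjusted p = 0.00172, limma), and the call held without each library in turn.

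Socs2, a STAT5 target that limits cytokine signals, had 48.4, 29.2 and 23.2 RPM in YH250 libraries 1, 2 and 3, against 52.6, 27.6 and 25.0 RPM in DMSO libraries 1, 2 and 3. It fell by 1.04 in number 3 against number 1 (adjusted p = 0.0393, limma; lost without either library numbered 1 or either numbered 3). Sla and Dusp6 rose in that contrast, by 1.35 and 1.02. Sla encodes an adaptor that promotes receptor degradation and Dusp6 an ERK phosphatase; both calls were lost without DMSO library 1 or 3, that of Sla also without YH250 library 3 and after rescaling to the sum of genes, and that of Dusp6 also without YH250 library 1, after that rescaling and after quantile normalization. Dok1 and Dok2, docking proteins that restrain RAS, fell in number 3 against number 2, by 2.34 and 1.06, and both calls were lost without YH250 library 3 or DMSO library 3. The call of Dok1 was also lost without YH250 library 2. By the smallest unadjusted p between YH250 and DMSO the leading members were Prkca, Inpp5d and Ubash3b, encoding a protein kinase C, a lipid phosphatase and a suppressor of receptor signals, at -0.94, -0.54 and -0.78, none at an unadjusted p under 0.05 by limma. With the replicate number as a block the unadjusted p of Prkca was 0.0154, that of Inpp5d 0.0129, that of Dok2 0.0267 and that of Grb10 0.0111 (limma). Spred1, another RAS inhibitor, named after its values were seen, had its 3 YH250 libraries (35.9 to 44.95 RPM) below its 3 DMSO libraries (45.2 to 58.1 RPM), as 3.68% of all tested genes did, with a log2 difference of -0.32 and an unadjusted p of 0.203 (limma).

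Of 25 transcription factors known to act on the Kit or Flt3 loci or on the cells that express them, Pax5 was below the minimum and 24 were tested. After YH250 17 were lower in mean and 7 higher, with a median of -0.16, and none passed. Myb, which is required in blood progenitors and can act on Kit, was the only one of the 121 tested members of the 5 receptor lists with an unadjusted p under 0.05 without the block. With the replicate number as a block 13 of the 121 were under it, against the 7.44% of all tested genes given above, and none passed after adjustment. It had 264, 261 and 339 RPM in YH250 libraries 1, 2 and 3, against 386, 428 and 539.8 RPM in DMSO libraries 1, 2 and 3. Every YH250 library was below every DMSO library. The log2 difference was -0.64 (unadjusted p = 0.0178, limma, adjusted p = 0.999), close to the -0.66 of Kit. With the block the unadjusted p was 0.0016. Across numbers Myb and Kit ran in opposite order, Myb being highest in the libraries numbered 3 and Kit in those numbered 1.

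Between numbers 3 and 1, 4 of the 24 factors rose and 5 fell, where 5.60% of all tested genes rose and 2.96% fell. With 1 library left out 2 to 5 rose and 4 to 7 fell, and 2 rose without either library numbered 1 or without DMSO library 3. Satb1, a chromatin organizer of lymphoid priming, had 21.8, 89.5 and 203 RPM in YH250 libraries 1, 2 and 3, against 13.3, 76.4 and 231 RPM in DMSO libraries 1, 2 and 3. It was the only one of the 24 that also rose in number 2 against number 1, by 2.21 on the log2 scale (adjusted p = 0.0115, limma), and it held without each library in turn. Ikzf1, the lymphoid factor Ikaros, rose by 1.69 in number 3 against number 1 (adjusted p = 0.00228, limma). Gata2, a stem cell factor, had 172, 122 and 37.6 RPM in YH250 libraries 1, 2 and 3, against 158, 82.5 and 50.95 RPM in DMSO libraries 1, 2 and 3. It fell by 1.89 in number 3 against number 1 (adjusted p = 0.00229, limma).

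In the same contrast Meis1 differed by -1.29 and Zfpm1 by -2.09, and both fell, at adjusted p of 0.00342 and 0.00351 (limma). Meis1 encodes a homeodomain factor of stem cells, and Zfpm1 the GATA cofactor FOG1. The calls of Ikzf1, Gata2 and Meis1 held without each library in turn, and that of Zfpm1 was lost without DMSO library 3. After quantile normalization or rescaling to the sum of genes 2 factors rose and 8 fell. Runx1 and Lmo2, a Runt factor and a LIM adaptor of blood stem cells, differed between YH250 and DMSO by -0.42 and -0.48 (unadjusted p = 0.119 and 0.173, and 0.046 and 0.0153 with the block, limma).

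The list of genes that respond early to receptor signals or carry survival had 30 members, of which 27 were tested: 14 were lower and 13 higher after YH250, with a median of -0.02, and none passed. Those of smallest unadjusted p were Fosl2 at -0.69, Pim2 at 0.49 and Myc at -0.31, none of them under 0.05 by limma; with the block that of Fosl2 was 0.015. Fosl2 and Myc encode transcription factors of the response, and Pim2 a survival kinase. Between numbers 3 and 1, 3 rose and 6 fell, where 5.60% of all tested genes rose and 2.96% fell. Cish, a STAT5 target, had 69.1, 37.0 and 21.95 RPM in YH250 libraries 1, 2 and 3, against 79.9, 31.4 and 23.3 RPM in DMSO libraries 1, 2 and 3. It was highest at number 1 in both groups, as Kit was, and fell by 1.67 in number 3 against number 1 (adjusted p = 0.00415, limma, held without each library in turn).

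Bcl2l11, which encodes the death factor BIM, rose by 2.34 in number 3 against number 1 (adjusted p = 0.0065, limma; lost without DMSO library 3). Junb, an immediate early gene, was highest at number 2, with 679, 961 and 369 RPM in YH250 libraries 1, 2 and 3, against 569, 739 and 224 RPM in DMSO libraries 1, 2 and 3. Jun, Junb and Dusp1 fell in number 3 against number 2, by 1.91, 1.55 and 1.32, whereas Fosb rose by 1.90, and all 4 calls held without each library in turn. Without 1 library, 0 to 4 members of this list rose (none without DMSO library 3, 1 without DMSO library 1) and 1 to 9 fell (1 without DMSO library 1, 3 without YH250 library 3, 4 without DMSO library 3) in number 3 against number 1, and after rescaling to the sum of genes 1 rose and 9 fell. Scaling touched the balance of the number contrasts. Rescaling each library to the sum of its genes moved the median of all genes by -0.33 for number 3 minus number 1, by -0.22 for number 3 minus number 2 and by -0.11 for number 2 minus number 1. The share of calls that were higher then became 34.3% in place of 65.4% for number 3 minus number 1 and 33.1% in place of 58.2% for number 3 minus number 2. Against those medians Flt3 kept its step, with 2.82 for number 3 minus number 1.

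**Figure D4:**
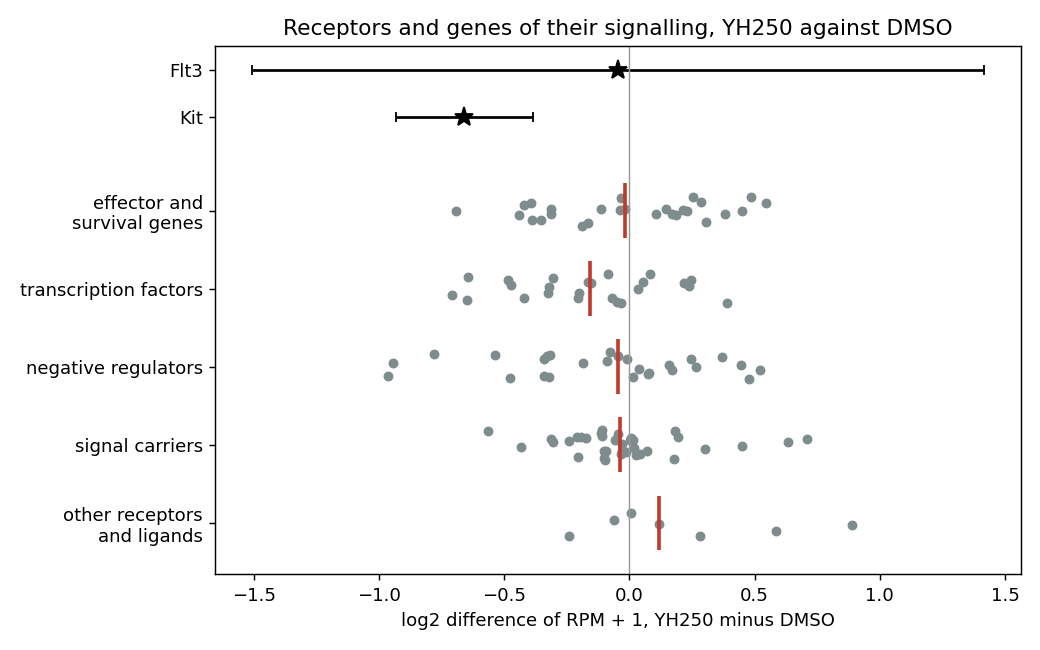
Log2 differences of YH250 minus DMSO, with a row for each of Flt3 and Kit (star and standard error, 3 libraries a group) and for each of the 5 receptor lists (a point per tested gene, a red bar at the list's median); the grey line marks no difference. The list medians lie between -0.16 and 0.12, Kit lies to their left at -0.66, and the bar of Flt3, with a standard error of 1.46, spans nearly the whole plot.

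The genes beside Kit and Flt3 on chromosome 5 are given by their levels; none of those tested passed between YH250 and DMSO, where no gene did. Upstream of Kit, Chic2 had 44.4, 87.0 and 59.2 RPM in YH250 libraries 1, 2 and 3, against 55.4, 56.6 and 60.4 RPM in DMSO libraries 1, 2 and 3. Downstream, Kdr, the VEGF receptor of endothelial cells, had 6.22, 1.52 and 0.917 RPM in YH250 libraries 1, 2 and 3, against 3.76, 2.54 and 3.64 RPM in DMSO libraries 1, 2 and 3. Gsx2 was at 0 in all 6 libraries, and Srd5a3 and Tmem165, with 8.38 to 20.3 and 30.6 to 46.0 RPM after YH250 and 8.87 to 21.9 and 37.4 to 47.8 RPM after DMSO, were lower after YH250 at some numbers only.

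On the side of Flt3's 3′ end, Urad was at 0 in all 6 libraries and the homeobox genes Cdx2 and Pdx1 reached at most 0.0417 RPM. Pan3, a subunit of the poly(A) nuclease that lies on the other side, had 92.6, 117 and 239 RPM in YH250 libraries 1, 2 and 3, against 90.4, 161 and 169 RPM in DMSO libraries 1, 2 and 3. It rose by 1.13 in number 3 against number 1 (adjusted p = 0.0217, limma), a call lost without YH250 library 3 or DMSO library 1, under rescaling and under quantile normalization. Flt1, another VEGF receptor, had at most 4.12 RPM, and Pomp, a proteasome assembly factor, had 190 to 236 RPM after YH250 and 135 to 267 RPM after DMSO.

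The window before Flt3 also carries an annotated antisense gene, Gm26597, from 147399554 to 147401917 on the plus strand, which overlaps the start of Flt3 and spans the whole printed sequence. It had 1.31, 4.60 and 7.09 RPM in YH250 libraries 1, 2 and 3, against 1.69, 7.10 and 9.24 RPM in DMSO libraries 1, 2 and 3. Like Flt3, it was lowest in both libraries numbered 1, and it rose by 1.87 in number 3 against number 1 (adjusted p = 0.046, limma), a call lost without any of the libraries numbered 1 or 3 and under rescaling. Whether the authors' counting used strand is not stated, so reads of Gm26597 and of Flt3 cannot be told apart where they overlap.

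The genes most like each receptor were found by the root mean square difference between log2 profiles over the 6 libraries, each centred on its mean, among 8409 named protein-coding genes that averaged 10 RPM or more. For Kit they were Tmem18 (0.103), Tmem185b (0.123), Maoa (0.134), Fmo5 (0.143), Rbpms (0.148) and Stx6 (0.150), where the median over all genes was 0.582. Tmem18 had 14.2, 10.1 and 9.17 RPM in YH250 libraries 1, 2 and 3, against 20.7, 15.2 and 13.5 RPM in DMSO libraries 1, 2 and 3. Each of these 6 was highest at number 1 in the YH250 group and lower in the YH250 library at every number, as the choice by likeness to Kit favours. Kit varied less over the 6 libraries than Flt3, with an SD of 0.47 against 1.60 on the log2 scale, so the distances of the 2 sets are not on an equal footing.

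For Flt3 the nearest were Ddx4 (0.226), Lpcat2 (0.309), Wfdc17 (0.384), Wfdc18 (0.425), Il1r1 (0.440) and Ccl4 (0.447), where the median over all genes was 1.46. Ddx4, an RNA helicase known from germ cells, had 2.08, 34.3 and 23.1 RPM in YH250 libraries 1, 2 and 3, against 2.42, 25.3 and 28.2 RPM in DMSO libraries 1, 2 and 3. Wfdc17 had 14.5, 165 and 136 RPM in YH250 libraries 1, 2 and 3, against 10.1, 147 and 254 RPM in DMSO libraries 1, 2 and 3. All 6 were low in both libraries numbered 1 and high in the other 4, as the choice by likeness to Flt3 favours. Ccl4, a chemokine, Wfdc17 and Wfdc18 lie within 48.8 kb of each other on chromosome 11, between 83662584 and 83711348. The distance between the profiles of Kit and Flt3 themselves was 1.73.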

How the data were processed

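The data are RNA-seq of 3 YH250 and 3 DMSO libraries of sorted mouse bone marrow cells. Per the labels' protocols, polyadenylated RNA was amplified with an ultra-low-input kit and read from 1 end. CASAVA 1.8.2, TopHat2 2.0.8, Partek and mm10 appear in the submitters' processing notes without roles; no source used here gives the gene annotation or says whether strand was used. The authors deposited 1 normalized signal per gene and library, in a unit they do not state. Every library's lowest value is exactly 1, and the excess over 1 moves in 1 step common to all genes, so the signal was read as RPM plus an offset of 1. The step makes a read worth 0.0321 to 0.0455 RPM. Among values of up to 20 reads, 60.9% to 69.0% came within 0.1 of a whole number, too few for a count test. Counting errors from approximate reads cover counting error only.

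After subtracting the offset, the 13597 genes averaging 1 RPM or more were tested as log2(RPM + 1), by limma 3.58.1 under R 4.3.3 (lmFit; eBayes with trend and robust), with Benjamini-Hochberg adjustment over all of them at 0.05. Differences of low genes are understated on this scale. YH250 minus DMSO used 3 against 3 libraries. Contrasts between replicate numbers had treatment as a second term and 2 libraries a number. The fit was tested on simulated data. Positions are from GENCODE on GRCm38 and promoters from RefSeq; 40254 of 41128 IDs had a symbol. Summaries used Python 3.11.15.

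Pairing by number was checked by subtracting each group's mean profile and comparing what was left. Libraries numbered 1, 2 and 3 correlated across groups at 0.55, 0.26 and 0.70, all above the limit of 0.1, so a fit with the number as a replicate block is given where it changes a count. Across numbers 1 and 2 the correlations were 0.14 and 0.11, also above that limit, so passing it does not by itself mark libraries of the same number. For number 2 the excess over these was small. The remaining correlations across numbers ran from -0.55 to -0.265, and subtracting group means pushes such values down.

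Kit, Flt3, the gene lists and the contrasts were chosen with earlier results of these data known. Named by rule were both receptors, the class III receptors and ligands, up to 6 passing members and the 3 of smallest unadjusted p per list, the 6 profiles most like each receptor, the nearest genes on each side, and sort markers; a few others are said to be named after their values were seen. Not every gene covered by that rule is reported here. Alternatives were other scalings, pseudocounts, minimum levels, array weights, the block, and leaving out libraries and pairs of libraries.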

Additional observations from a re-analysis of the deposited data

How the results depend on the processing

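Kit was lower in mean after YH250 under every scaling, pseudocount, minimum level, library weighting and omission tried, with leave-one-out values of -0.86 to -0.48 on the log2 scale; for Flt3 they were -1.12 to 0.95. The replicate block left both differences at -0.66 and -0.05 and no gene passed with or without it, while it raised the genes at an unadjusted p under 0.05 to 1012, against 231 without it, among them 13 of the 121 receptor list members, against 1. Leaving out 1 library at a time, Flt3 differed by 2.90 to 3.14 for number 2 minus 1, by 3.05 to 3.29 for number 3 minus 1 and by 0.07 to 0.23 for number 3 minus 2, and Kit by -0.44 to -0.26, -0.75 to -0.57 and -0.36 to -0.26. Flt3 for number 3 minus 1 was 3.00 with a pseudocount of 5, 2.89 after quantile normalization and 2.82 after rescaling to the sum of genes; number 2 minus 1 was 2.86 with that pseudocount and 2.91 after rescaling; number 3 minus 2 was -0.119 after quantile normalization and -0.0912 after rescaling. Of all genes, 1164 passed for number 3 against 1, 858 for 3 against 2 and 27 for 2 against 1. With no minimum level these were 180, 42 and 0 (2237 at an unadjusted p under 0.05, limma); with 1 library left out they ranged over 417 to 3010, 250 to 3137 and 39 to 1764, lowest without DMSO library 3 for the first 2 contrasts. For 2 against 1, 75 passed with a minimum of 5 RPM and 46 after quantile normalization; for 3 against 2, 568 passed with a pseudocount of 0.1. The cause was not tested. The median log2 ratio of Flt3 to Kit was 0.51 with the longest transcript and 0.62 with the longest coding transcript, an alternative added after the data were seen, against 0.63 with the joined exons. At 1 RPM a gene rested on 21.96 to 31.2 reads, which limits what can be said of the ligands.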
